A study of Homo sapiens with 6 samples.

Results

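The E2F and RB families are the transcription factors and pocket proteins that govern entry into S phase. The genes E2F1 to E2F8, RB1 and RBL1 were taken as 10 rows of the deposited table by matching its Ensembl identifiers to gene symbols. All 10 were found among the 21429 genes of the table, and all 10 were among the 15327 genes tested, those whose mean level over the libraries was at least 3. Transcripts were measured by RNA sequencing in U251, an established human glioma line, that in every library carried a stably introduced mutant APP (K670N/M671L), switched on with doxycycline. The siNC group, 3 libraries, received a control siRNA by electroporation, and the siRPL13 group, 3 libraries, received one that targets RPL13, the gene of a large-subunit ribosomal protein. In both groups doxycycline at 1 µg/mL was added with fresh medium after 24 h, and RNA was taken at 72 h. No group was without the mutant APP, and the labels do not say whether the line is 1 clone. The labels call the libraries biological replicates without saying how the cultures were separated, so p-values measure the spread between these libraries.

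As background, E2F1, E2F2 and E2F3 activate genes of DNA replication, bound to DNA together with a DP partner. RB1, the retinoblastoma protein, binds these activators and silences them until cyclin-dependent kinases phosphorylate it. E2F4 and E2F5 act mainly as repressors with the pocket proteins RBL1 and RBL2. E2F6 represses without a pocket protein, together with Polycomb-type proteins, and E2F7 and E2F8 are atypical repressors that bind DNA without a DP partner. Several E2F genes are themselves known E2F targets.

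The stretches of 80 bases before the RefSeq start site (GRCh38.p14, minus strand for all 4 genes) are shown for 4 members. E2F1, E2F2 and E2F7 were lower in the test below. RBL1 had the most matches to an E2F motif among the members searched. Capitals mark the E2F motif, searched as TTTCGCGC or TTTGGCGC on both strands. Variants of these letters were not searched and are left in lower case. The stretches lie at chr20:33686386-33686465 (E2F1), chr1:23531234-23531313 (E2F2), chr12:77065570-77065649 (E2F7) and chr20:37095998-37096077 (RBL1).
E2F1: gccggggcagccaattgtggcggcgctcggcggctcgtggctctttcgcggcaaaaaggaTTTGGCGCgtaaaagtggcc
E2F2: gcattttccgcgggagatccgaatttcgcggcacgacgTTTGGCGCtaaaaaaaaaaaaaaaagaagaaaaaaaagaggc
E2F7: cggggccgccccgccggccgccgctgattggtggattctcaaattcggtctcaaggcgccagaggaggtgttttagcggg
RBL1: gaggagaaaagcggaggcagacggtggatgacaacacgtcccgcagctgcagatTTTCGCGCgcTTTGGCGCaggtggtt

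Windows of 300 bases (250 before to 50 after a start site) were searched for E2F1, E2F2, E2F3 (2 start sites), E2F4, E2F6, E2F7 and RBL1. The table of windows gave 1 for RB1 too, but it lay 172724 bases inside the gene and was not used; E2F5 and E2F8 were not searched. E2F1, E2F2 and RBL1 held the E2F motif. It began at position -20 from the start site in E2F1, at -42 in E2F2, and at -26 and -16 in RBL1, where the matches did not overlap. Of 35116 windows of the same length in the table, 403 held it, or 1.15%. The CHR motif TTTGAA, known from promoters of late cell cycle genes, was found on either strand in 15.2% of all windows and, among the members, in 1 window of E2F3. A match is a description of the letters, not a measured binding site.

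The level of each member in the siNC libraries was compared after subtracting the log2 of the exonic length in kb (GENCODE 29). Values in the table are regularized-log (rlog) values, which lie on a log2 scale, are adjusted by the authors for library size and are pulled towards the gene's mean. On this length-scaled level E2F1 was highest at 10.46 ± 0.05 (SD, n = 3), followed by E2F4 at 9.84 ± 0.08. RB1 stood at 8.10 ± 0.01, E2F3 at 7.94 ± 0.04 and E2F6 at 7.82 ± 0.12, and the libraries of the last 2 overlapped. E2F2 at 7.33 ± 0.04 and E2F7 at 7.26 ± 0.09 overlapped as well, as did RBL1 at 6.94 ± 0.08 and E2F8 at 6.76 ± 0.16. E2F5 was lowest at 5.59 ± 0.03. RBL2, the remaining pocket protein gene, is no member of the set and was added after its values were seen; it lay between E2F4 and RB1 at 8.95 ± 0.06.

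**Figure D1:**
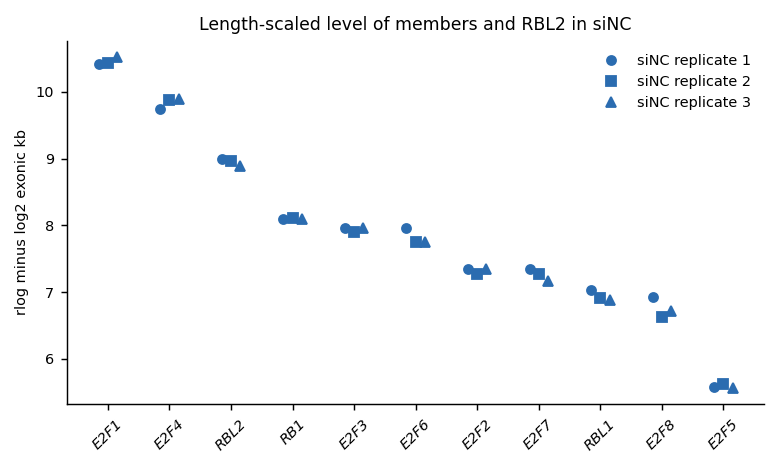
Length-scaled level (vertical axis, rlog minus log2 of exonic length in kb; the axis does not start at 0) of the 10 members and RBL2 in siNC, with 1 point per library. E2F1 lies highest at a mean of 10.46 and E2F5 lowest at 5.59.

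RPL13, the siRNA target, was read in every library before the members. Its rlog was 14.05, 14.16 and 14.18 across siNC replicates 1 to 3, 13.03 and 13.12 in replicates 1 and 2 of siRPL13, with 14.09 for the library labelled siRPL13 replicate 3. The target was thus not lowered in 1 of the 3 libraries. Library medians over the genes tested were 9.12 to 9.13, and read depth is unknown. Of 8 glioma and astrocyte markers, 6 had a mean rlog of at least 9, among them GFAP and VIM. The others were S100B at 5.48 to 5.83 and ALDH1L1 at 0.77 to 0.85. That level was reached by 0 of 3 microglia and leukocyte markers, 1 of 5 neuron markers and 0 of 2 endothelium markers. Listed were 6 microglia and leukocyte markers and 3 endothelium markers, of which the rest matched no row. ITGAM and CD68 stood at 0.19 to 0.40 and CSF1R at 4.88 to 5.22, while the neuron marker MAP2 stood at 10.32 to 10.66. Lower in all 3 siRPL13 libraries than in any siNC library were VIM, NES and GFAP, 3 of 7 astrocyte and glioma markers tested. The same held for CDH5, 1 of 2 endothelium markers, where 6.90% of all genes were so placed. For GFAP the groups were barely apart, with 14.983 in siRPL13 replicate 1 and 14.984 in siNC replicate 3. The groups of CD44, S100B, SOX2 and SOX9 overlapped. The part of these markers in the results below was not tested. Tests were therefore run on all 6 libraries and on the 5 libraries without that of siRPL13 replicate 3, called the 5-library comparison. This choice was made knowing the RPL13 level. "Rose" and "fell" refer to an adjusted p under 0.05 there (limma, Benjamini-Hochberg over the 15327 genes).

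With all 6 libraries no member passed. The limma test called 0 of 15327 genes (0%), none higher and none lower; 1275 genes (8.32%) had an unadjusted p under 0.05, among them 1 of the 10 members, E2F4. In the 5-library comparison 3 of the 10 members fell, E2F1, E2F2 and E2F7, and 0 rose. Over all genes 19.1% were called there, 10.7% lower and 8.42% higher. The falls were modest in size: E2F2 and E2F7 were at 72.2% and 71.8% of the siNC level on the rlog scale, and E2F1 at 88.6%. In bulk RNA a smaller share of cells in a cell cycle phase and less RNA per cell cannot be told apart. The calls rest on 2 siRPL13 libraries. With siRPL13 replicate 1 left out as well, 0 of the 10 members and 243 genes passed, and the remaining library had to be assumed to vary like the siNC libraries; with siRPL13 replicate 2 left out instead, 943 genes passed.

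**Figure D2:**
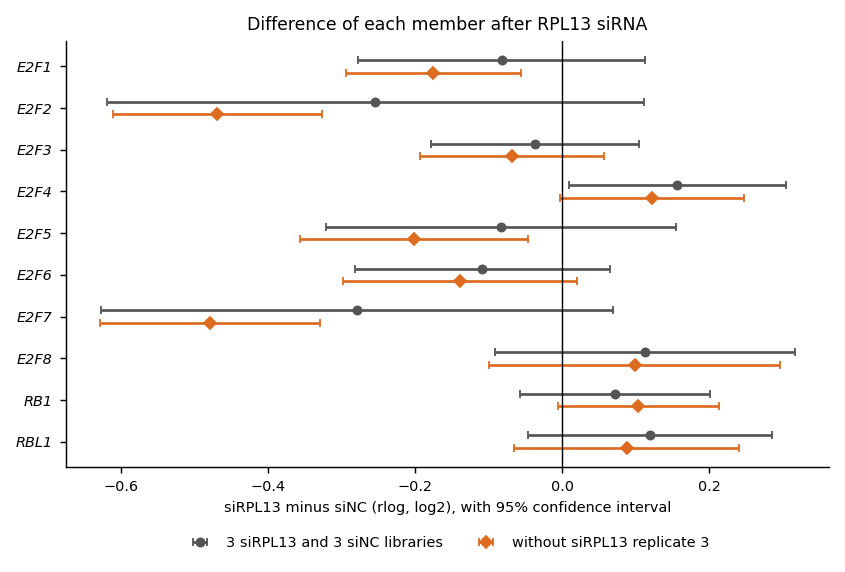
Difference between siRPL13 and siNC for each member (horizontal axis, rlog on the log2 scale) with its 95% confidence interval from limma, for all 6 libraries (grey) and for the 5 libraries without siRPL13 replicate 3 (orange). In the 5-library comparison the intervals of E2F2 and E2F7 lie wholly below -0.32, while those of E2F3, E2F4, E2F6, E2F8, RB1 and RBL1 include 0.

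Among the activators, E2F2 (ENSG00000007968, GRCh38 chromosome 1, 23506430 to 23531220, minus strand) differed most between libraries. Its rlog was 9.80, 9.72 and 9.80 across siNC replicates 1 to 3, 9.24 and 9.37 in replicates 1 and 2 of siRPL13, with 9.95 for the library labelled siRPL13 replicate 3. The first pair of siRPL13 libraries lay below every siNC library and the last lay above all of them. E2F2 fell by 0.47 ± 0.06 (SE, log2) in the 5-library comparison (adjusted p 0.00124, limma). Over that comparison's alternatives the adjusted p ran from 2.86e-06 to 0.0510, the highest without siRPL13 replicate 1. Over 6 libraries its difference was -0.25 ± 0.16 with an adjusted p of 0.637.

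E2F1 (ENSG00000101412, chromosome 20, 33675683 to 33686404, minus strand), an activator that also promotes cell death genes, showed the same split of the siRPL13 libraries over a smaller range. Its values were 11.75, 11.76 and 11.84 in siNC, 11.56 and 11.65 in replicates 1 and 2 of siRPL13, with 11.89 for the library labelled siRPL13 replicate 3. Again the library with undiminished RPL13 was the highest of the 6. E2F1 fell by 0.18 ± 0.05 in the 5-library comparison (adjusted p 0.0440, limma), a call that was lost in 9 of 13 alternatives, whose adjusted p ran from 0.00964 to 0.410. The alternatives that ended it included quantile scaling (0.0851), median centring (0.0558), no filter on low values (0.0700) and no variance trend (0.0725). It was also lost without siNC replicate 2 (0.0507), siNC replicate 3 (0.124), siRPL13 replicate 1 (0.410) or siRPL13 replicate 2 (0.128). With all 6 libraries the difference was -0.08 ± 0.09 (adjusted p 0.757).

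E2F3, the remaining activator, was at 10.33, 10.27 and 10.33 in siNC, 10.20 and 10.29 in replicates 1 and 2 of siRPL13, with 10.34 for the library labelled siRPL13 replicate 3. The groups overlapped. Its 5-library difference was -0.07 ± 0.06, with a 95% confidence interval from -0.19 to 0.06 and an adjusted p of 0.437 (limma). Over 6 libraries it was -0.04 ± 0.06 (adjusted p 0.853). A difference of the size seen for E2F2 lay outside the 5-library interval.

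Of the repressors that work with pocket proteins, E2F4 (ENSG00000205250, chromosome 16, 67192169 to 67198918, plus strand) was the 1 member whose groups did not overlap over all 6 libraries. It stood at 11.58, 11.72 and 11.73 in siNC and at 11.82, 11.79 and 11.91 in siRPL13 replicates 1 to 3. All 3 siRPL13 libraries, that with undiminished RPL13 included, were above every siNC library. Among all genes 6.92% had groups apart in this direction and 6.90% in the other, where no member was found, so 1 of 10 is near the background. The difference was 0.16 ± 0.06 with an unadjusted p of 0.0395 and an adjusted p of 0.589 (limma), while the 5-library comparison gave 0.12 ± 0.06 (adjusted p 0.160). It did not pass in any alternative of either comparison.

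E2F5 was at 8.14, 8.19 and 8.14 in siNC, 7.95 and 7.97 in replicates 1 and 2 of siRPL13, with 8.31 for the library labelled siRPL13 replicate 3. As for E2F2, the siNC libraries lay between the siRPL13 libraries. Its 5-library difference of -0.20 ± 0.07 did not pass (adjusted p 0.0686, limma), though it did without a variance trend (0.0332) and with estimated library weights (0.0385), within a range of 0.0332 to 0.346 over the alternatives. The 6-library difference was -0.08 ± 0.10 (adjusted p 0.797). E2F5 shares exon bases with C8orf59 on the opposite strand, which stood at 7.80 to 8.02 and so close to the level of E2F5. No source used here says whether the counting used strand, so reads of this pair may be mixed.

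E2F6, the repressor that needs no pocket protein, stood at 9.98, 9.77 and 9.77 in siNC and 9.71, 9.70 and 9.79 in siRPL13 replicates 1 to 3. In the library labelled siRPL13 replicate 3 it was within the siNC range. The 5-library difference was -0.14 ± 0.07 with an adjusted p of 0.202 (limma). The 6-library difference was -0.11 ± 0.08 (adjusted p 0.657). Its processed pseudogene E2F6P1 had rlog values of 6.10 to 6.55, and the division of reads shared by both is not known here.

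Of the atypical repressors, E2F7 fell and E2F8 did not pass. E2F7 (ENSG00000165891, chromosome 12, 77021247 to 77065580, minus strand) stood at 10.00, 9.93 and 9.83 in siNC, 9.39 and 9.49 in replicates 1 and 2 of siRPL13, with 10.04 for the library labelled siRPL13 replicate 3. As for E2F2, the siNC libraries lay between the siRPL13 libraries. E2F7 fell by 0.48 ± 0.07 in the 5-library comparison (adjusted p 0.00147, limma; 2.5e-08 to 0.0518 over the alternatives, the highest without siRPL13 replicate 1). Keeping all 6, the difference was -0.28 ± 0.15 (adjusted p 0.605).

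E2F8 was at 8.98, 8.68 and 8.77 in siNC and 8.86, 8.96 and 8.95 in siRPL13. Its groups overlapped, and the siNC libraries alone spanned the siRPL13 values. The 5-library difference was 0.10 ± 0.09, with a 95% confidence interval from -0.10 to 0.30 (adjusted p 0.475, limma), and that over 6 libraries 0.11 ± 0.09 (adjusted p 0.688). E2F8 minus E2F7 within a library was -1.02, -1.25 and -1.05 in siNC, -0.53 and -0.53 in replicates 1 and 2 of siRPL13, with -1.09 for the library labelled siRPL13 replicate 3; the difference between the 2 genes was not tested.

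Neither pocket protein gene passed. RB1 (ENSG00000139687, chromosome 13, 48303726 to 48599436, plus strand) stood at 10.78, 10.80 and 10.79 in siNC, 10.89 and 10.90 in replicates 1 and 2 of siRPL13, with 10.80 for the library labelled siRPL13 replicate 3. The last lay within the siNC range and the other 2 above it. Its 5-library difference of 0.10 ± 0.05 did not pass (adjusted p 0.170, limma; 95% confidence interval -0.0056 to 0.21). Over 6 libraries it was 0.07 ± 0.06 (adjusted p 0.685), and with library weights estimated there the adjusted p was 0.0451, within 0.0451 to 1.00 over the alternatives.

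RBL1 (ENSG00000080839, chromosome 20, 36996349 to 37095995, minus strand) was at 9.60, 9.48 and 9.46 in siNC and 9.54, 9.66 and 9.69 in siRPL13. The groups overlapped through siNC replicate 1. Its difference was 0.12 ± 0.07 over all 6 libraries (adjusted p 0.630, limma) and 0.09 ± 0.07 in the 5-library comparison (adjusted p 0.404). RBL2 stood at 11.87, 11.84 and 11.75 in siNC and 11.88, 11.85 and 11.78 in siRPL13, a difference of 0.02 ± 0.06 over 6 libraries (adjusted p 0.928, limma) and 0.05 ± 0.05 over 5 (adjusted p 0.567).

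**Figure D3:**
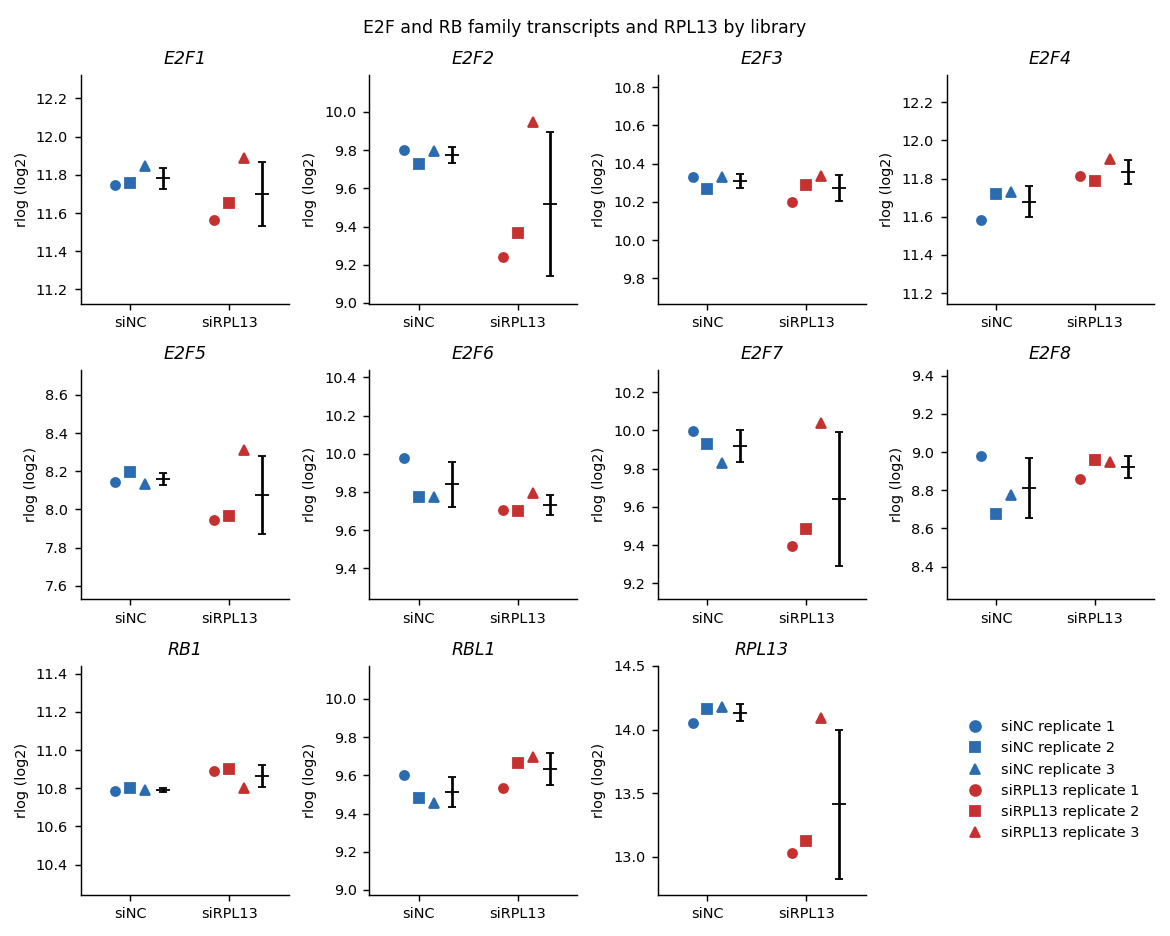
Level of the 10 members and of RPL13 (vertical axis, rlog on the log2 scale, not starting at 0; the span is wider for RPL13 than for the members), with 1 point per library, colored blue for siNC and red for siRPL13, point shapes giving the replicate, and black bars for the mean of 3 libraries ± SD. For E2F2 and E2F7 the siRPL13 points split into 9.24 and 9.37, and 9.39 and 9.49, against 9.95 and 10.04 in the library labelled siRPL13 replicate 3.

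Members with groups apart in the 5-library comparison were E2F1, E2F2, E2F5, E2F6 and E2F7 on the lower side, 5 of 10 where 26.6% of all genes were so placed, and E2F4 and RB1 on the higher side, 2 of 10 against 24.7%. The mean of the activators E2F1 to E2F3 relative to siNC was -0.29 and -0.19 in replicates 1 and 2 of siRPL13, with 0.10 for the library labelled siRPL13 replicate 3. That of RB1 and RBL1 was 0.06, 0.13 and 0.10 in the same libraries, that of E2F4 to E2F6 was -0.07, -0.08 and 0.11, and that of E2F7 and E2F8 was -0.24, -0.14 and 0.13. The means of all 3 E2F classes were below the siNC average in the pair of libraries with lowered RPL13 and above it in the remaining one. Not every E2F gene followed its class mean in that pair. E2F4 stood above the siNC average by 0.137 and 0.107, and E2F8 by 0.048 and 0.150. The pocket protein mean was slightly above the siNC average in all 3 siRPL13 libraries.

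The pathway around the members was read from 7 gene lists. DP partners are needed by E2F1 to E2F6 for DNA binding. TFDP1, the main DP gene, fell: it stood at 11.95, 11.87 and 11.92 in siNC, 11.68 and 11.74 in replicates 1 and 2 of siRPL13, with 11.94 for the library labelled siRPL13 replicate 3, a 5-library difference of -0.20 ± 0.05 (adjusted p 0.0182, limma). The call was lost without siRPL13 replicate 1 or 2. TFDP2 did not pass, with a difference of 0.11 ± 0.06 (adjusted p 0.224). Over 6 libraries the differences were -0.12 ± 0.08 for TFDP1 (adjusted p 0.628) and 0.03 ± 0.08 for TFDP2 (adjusted p 0.921).

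Upstream of the pocket proteins stand the cyclins and kinases that phosphorylate them and the inhibitors of those kinases. This list also held other regulators, CCNF among them. Of the 18 genes listed, 14 matched a row of the deposited table and were tested. Of these, 9, CCNF included, fell and 0 rose in the 5-library comparison. The median difference was -0.26 against -0.0014 over all genes, of which 10.7% fell and 8.42% rose. The largest falls were those of the kinase inhibitors CDKN1A (-0.77 ± 0.09) and CDKN1C (-0.49 ± 0.07), followed by CCNA2 (-0.37 ± 0.10), an S phase cyclin, CCNF (-0.37 ± 0.06), a ubiquitin ligase subunit, and CCND3 (-0.33 ± 0.06), a D-type cyclin. Genes that promote phosphorylation and genes that inhibit it were therefore both among those that fell. CDK4 and CDK6, the kinase partners of D-type cyclins and named after their values were seen, had groups apart on the higher side over all 6 libraries, and the inhibitor genes CDKN1B and CDKN1C on the lower side: 2 of 14 each way, against 6.92% and 6.90% of all genes. CDK4 and CDK6 did not pass (adjusted p 0.108 and 0.0707 in the 5-library comparison; limma). The count of 9 became 2 without siRPL13 replicate 1 and 6 without siRPL13 replicate 2. With all 6 libraries 0 of 14 passed, and 2 had an unadjusted p under 0.05 (limma), beside 8.32% of all genes.

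The DREAM complex joins RBL1 or RBL2, E2F4 or E2F5 and the MuvB core, which later binds the activators MYBL2 and FOXM1. Of 8 genes 1 fell, MYBL2 by 0.45 ± 0.05 (adjusted p 0.000704, limma), and 0 rose, a share near the 10.7% of all genes called lower. The count stayed at 1 without siRPL13 replicate 1 or 2. MYBL2, a classic E2F target as well, was at 12.15, 12.06 and 12.12 in siNC, 11.62 and 11.70 in replicates 1 and 2 of siRPL13, with 12.24 for the library labelled siRPL13 replicate 3. FOXM1 had a difference of -0.15 ± 0.05 and did not pass (adjusted p 0.0569). The median of the list was 0.0003, and no MuvB subunit passed. Of the DREAM, corepressor and E2F6 complex lists, 0 genes passed over 6 libraries (limma). An unadjusted p under 0.05 was found for 0, 1 and 0 of them, beside 8.32% of all genes.

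Corepressors that pocket proteins recruit included 5 of 13 genes that fell, with 0 that rose and a median of -0.08, beside 10.7% lower and 8.42% higher over all genes. These were the histone methyltransferase genes SUV39H1 (-0.35 ± 0.07) and EZH2 (-0.27 ± 0.07), the histone-binding RBBP7 (-0.25 ± 0.06), the SIN3 complex subunit SAP30 (-0.24 ± 0.05) and the remodeller ATPase SMARCA4 (-0.17 ± 0.05). None passed when siRPL13 replicate 1 or 2 was left out. Of 9 subunits of the E2F6 complex 1 fell, WDR5 by 0.18 ± 0.05 (adjusted p 0.0382, limma), 0 rose, and the median was 0.06. L3MBTL2 stood at -0.16 ± 0.06 without passing (adjusted p 0.0851). The WDR5 share is near the 10.7% of all genes, and the count was 0 in 8 of 13 alternatives: no filter, quantile scaling, no variance trend, the replicate block, and without siNC replicate 2, siNC replicate 3, siRPL13 replicate 1 or siRPL13 replicate 2. It was 2 with library weights and without siNC replicate 1.

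Downstream, 25 of 50 G1/S genes known as E2F targets fell and 0 rose, where 10.7% of all genes fell and 8.42% rose, with a median difference of -0.20. FEN1, a flap endonuclease, stood at 12.18, 12.14 and 12.15 in siNC, 11.63 and 11.68 in replicates 1 and 2 of siRPL13, with 12.34 for the library labelled siRPL13 replicate 3. It fell by 0.50 ± 0.05. MYBL2 came next, then RRM2 (-0.44 ± 0.08), a ribonucleotide reductase subunit, and TYMS (-0.39 ± 0.06), thymidylate synthase. Adjusted p-values of these 4 genes lay between 0.000274 and 0.00569 (limma). The count of 25 became 2 without siRPL13 replicate 1 and 19 without siRPL13 replicate 2. Over 6 libraries 0 of 50 passed and 7 had an unadjusted p under 0.05 (limma), beside 8.32% of all genes.

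Of 42 G2/M genes known as DREAM targets 29 fell and 0 rose, with a median of -0.27, again beside 10.7% and 8.42% of all genes. ESPL1, which encodes separase, fell by 0.55 ± 0.07, the cyclin genes CCNB2 and CCNB1 by 0.48 ± 0.07 and 0.45 ± 0.07, the phosphatase gene CDC25C by 0.48 ± 0.08 and BIRC5, which encodes survivin, by 0.44 ± 0.07. The count of 29 became 2 without siRPL13 replicate 1 and 18 without siRPL13 replicate 2. Over 6 libraries 0 of 42 passed and 10 had an unadjusted p under 0.05 (limma), beside 8.32% of all genes. In 5 of the 42 genes all siRPL13 libraries were below all siNC libraries, CCNB2 and CDC25C among them, against 6.90% of all genes. Of the 50 G1/S genes 0 lay apart on the lower side and 1 on the higher side, HELLS, named after its values were seen; the difference between the lists was not tested. CCNB2 stood at 11.55, 11.32 and 11.47 in siNC and at 10.90, 11.03 and 11.31 in siRPL13 replicates 1 to 3, where the last missed the siNC range by less than 0.01.

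**Figure D4:**
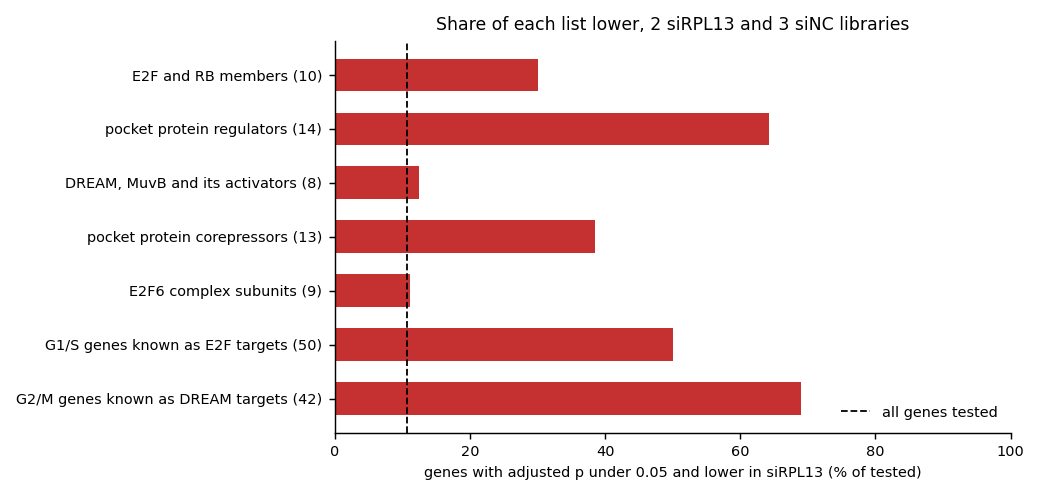
Share of each gene list with an adjusted p under 0.05 (limma) and a lower level in siRPL13 in the 5-library comparison (horizontal axis, percent of the genes tested, their number in brackets); the dashed line is the 10.7% of all genes tested. The list of DREAM, MuvB and its activators lies near the line at 12.5%, where the gene called is the activator MYBL2. The list of E2F6 complex subunits lies near it at 11.1%, and the G2/M list lies farthest from it at 69.0%.

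By library, the median of the G1/S list relative to siNC was -0.23 and -0.15 in replicates 1 and 2 of siRPL13, with 0.08 for the library labelled siRPL13 replicate 3, against 0.04, -0.05 and 0.03 in siNC. The G2/M median was -0.34, -0.21 and 0.0040 in siRPL13 and 0.07, -0.09 and 0.02 in siNC. Among the 3 siRPL13 libraries both lists and the activator mean were lowest in replicate 1 and highest in the library labelled siRPL13 replicate 3. In the library labelled siRPL13 replicate 3, 7 of the 10 members were above every siNC library and none below, where 29.4% of all genes were above and 27.9% below.

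**Figure D5:**
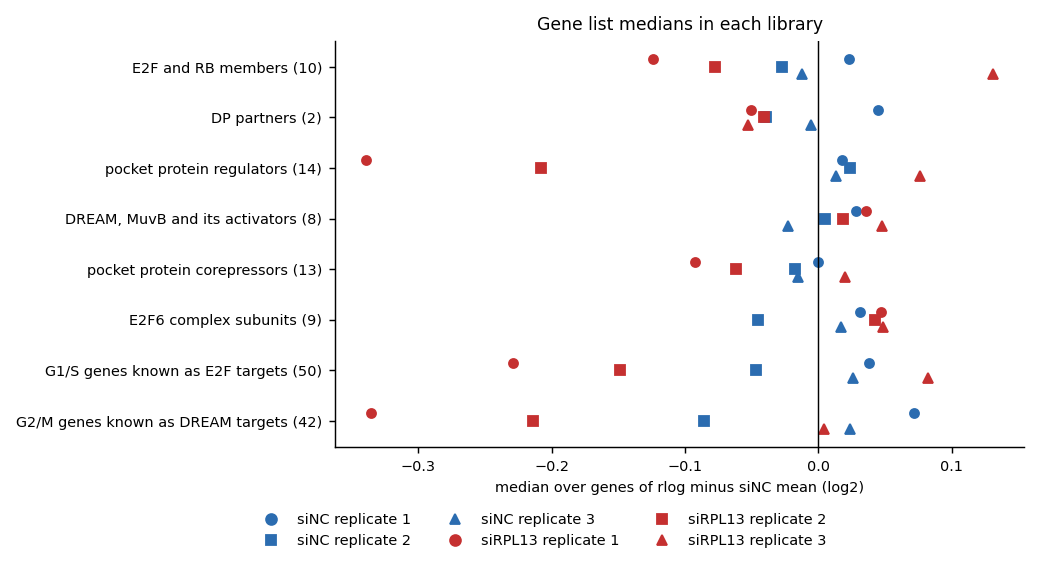
Median over the genes of each list of the rlog value less the siNC mean (horizontal axis, log2 units), with 1 point per library, colored blue for siNC and red for siRPL13; point shapes give the replicate and brackets the number of genes. For G1/S genes siRPL13 replicates 1 and 2 lie at -0.23 and -0.15 and the library labelled siRPL13 replicate 3 at 0.08.

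Genes with the pattern most like a member over the 6 libraries were ranked by Pearson's r among genes whose mean rlog reached 5. For E2F1 these were EMC8 (r = 0.998), ACTR1A (0.997) and HNRNPAB (0.995). For E2F7 they were MTMR4 (0.998), CDC42BPG (0.998) and ARHGEF39 (0.997), and for RB1 UTP23 (0.999), CPNE1 (0.999) and RTL8A (0.996). The points are the same 6 libraries in each case, and r is the highest among many genes, so it is a description only. UTP23, at 8.54 to 8.60 in siNC, stood at 8.87 and 8.89 in replicates 1 and 2 of siRPL13, with 8.60 for the library labelled siRPL13 replicate 3, the same placing as RB1.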

How the data were processed

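The deposited table holds rlog values, which are on a log2 scale, as its name states. Per the submitters' processing notes, Trimmomatic 0.33, TopHat, HTSeq 0.6.1p1, DESeq2 and GRCh38.p7 were used; their settings are not given in the sources used here. The values are no counts, so no count model was run, and changes of low genes are understated. Gene symbols matched 20499 of 21429 identifiers; positions and exonic lengths came from GENCODE 29 and promoter windows from RefSeq (GRCh38.p14).

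Genes whose mean rlog reached 3 were fitted with limma 3.58.1 in R 4.3.3 (moderated by eBayes with its trend option, two-sided, Benjamini-Hochberg over 15327 genes, threshold 0.05). Members, gene lists and the 5-library comparison were chosen with earlier results of these data known. Lists are described by counts and medians, with no set test. Listed genes that matched no row were left out. Rows were matched by 14 of 18 pocket protein regulators, 2 of 3 DP partners, 9 of 10 E2F6 complex subunits and 50 of 51 G1/S genes. CCNE1, CCNE2 and MYBL2 are each in 2 lists. Named were all members and RPL13, up to 5 genes per list with the largest difference among those called in the 5-library comparison (or the 2 largest where fewer than 2 were called), lists of up to 5 genes in full, and 3 like genes for E2F1, E2F7 and RB1. One gene that this rule names is not reported here. Alternatives were other filters, scalings, variance priors, library weights, the replicate number as a block and leave-one-out. The fit was tested on simulated data with noise from the siNC spread and the same change in every siRPL13 library. In the real data siRPL13 replicate 3 did not have lowered RPL13. The simulation therefore does not tell how many changes could be found here. Figures were drawn with matplotlib 3.10.9.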

Additional observations from a re-analysis of the deposited data

How the results depend on the processing

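With all 6 libraries, 0 genes and 0 members passed in 12 of 14 alternatives. Library weights gave 5309 genes and 6 members (E2F1, E2F2, E2F5 and E2F7 lower, RB1 and RBL1 higher), with a weight of 0.163 for siRPL13 replicate 3 and 7.19 for siRPL13 replicate 2. Leaving out 1 library gave 0 to 2933 genes and 0 to 3 members, the highest without siRPL13 replicate 3. E2F3 was the only member whose difference changed sign; it ran from -0.068 without siRPL13 replicate 3 to 0.0011 without siRPL13 replicate 1. In the 5-library comparison the other settings gave 2486 to 4298 genes and 2 to 4 members, and leaving out 1 library 243 to 3748 genes and 0 to 3 members. Of 130 member values there, 117 kept their direction and side of the threshold, 11 lost and 2 gained a call. The lost calls were 9 for E2F1 and 1 each for E2F2 and E2F7. The labels do not say whether replicate numbers pair the libraries. Deviations from the group mean of same-numbered libraries correlated at 0.084, -0.428 and -0.328 for replicates 1 to 3. These values cannot show whether cultures were paired, because siRPL13 replicate 3 stands apart from replicates 1 and 2 in its group. With the replicate block 0 genes and 0 members passed over 6 libraries, and 3043 genes and 2 members over 5, where siNC replicate 3 has no partner and does not contribute; the lost call was E2F1 (adjusted p 0.160, limma). The rlog scale hides read depth, so counting error is unknown.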

Other observations

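E2F4 minus E2F1 within a library, a pair chosen after the values were seen, was -0.16, -0.04 and -0.11 in siNC replicates 1 to 3 and 0.25, 0.14 and 0.02 in siRPL13 replicates 1 to 3. It was above every siNC library in all 3 siRPL13 libraries, including that with undiminished RPL13, as E2F4 alone was. Groups overlapped for the other pairs formed: E2F8 minus E2F7, RB1 minus E2F2, E2F4 minus E2F2 and, as given next, RB1 minus E2F1. With 3 against 3 libraries no test was run, and the share of all gene pairs with groups apart was not computed. RB1 minus E2F1 was -0.96, -0.95 and -1.05 in siNC, -0.67 and -0.75 in replicates 1 and 2 of siRPL13, with -1.09 for the library labelled siRPL13 replicate 3, so that its groups overlapped.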
